A study of Mus musculus with 6 samples.

Results

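The unfolded protein response and the integrated stress response were followed through 43 genes, taken by symbol from a list of sensors, transcription factors, enzymes and endoplasmic reticulum (ER) chaperones. All 43 had a row among the 16874 genes of the table, and all 43 had a mean of at least 0.5 FPKM, the level needed to be tested (FPKM, a read density per kilobase of gene, corrects for length and depth). RNA came from colon fibroblasts grown in culture, from C57BL/6 mice aged 12 weeks, in 3 libraries labelled Prkcz-/- (loss of the atypical protein kinase C zeta gene on each allele) and 3 labelled WT. Both groups were untreated, and cells were taken 24 h from plating, when about 80% confluent. The series' design text speaks of biological replicates and of groups with guide RNAs (sgScr, sgSox2), while these 6 libraries carry a genotype label alone. Whether replicates came from separate mice or cultures is not stated, so p-values measure the spread between these libraries, which may be technical.

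Secreted and membrane proteins fold in the ER. When unfolded protein accumulates there, the sensors IRE1 (Ern1), PERK (Eif2ak3) and ATF6 signal to the nucleus. ATF6 and spliced XBP1 raise the genes of chaperones and of ER-associated degradation (ERAD), which moves misfolded proteins to the proteasome. PERK and other kinases phosphorylate eIF2, which slows translation and favours that of ATF4, the activator of amino acid synthesis, tRNA synthetase and feedback genes. This second route, the integrated stress response, can also be switched on without ER stress, for example by amino acid shortage. Fibroblasts secrete large amounts of matrix and carry a high load of ER chaperones.

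The 2 routes are known to act through different promoter elements, which are shown here because the results are set out along them. The ER stress response element (ERSE) was searched as CCAAT and CCACG with 9 bases between them. The C/EBP-ATF response element (CARE), bound by ATF4 dimers, was searched as TGATGNAA, and the XBP1 element (UPRE) as TGACGTGG. Both strands were searched in the 250 bases before the RefSeq start of each gene (GRCm38.p6). Of the 43 members 37 had a promoter there (not Atf6, Ppp1r15b, Nars, Wars, Manf or Hyou1). Gene spans given below are from GENCODE, whose starts can differ. A site before the RefSeq start can therefore lie within the GENCODE span, as for Hspa5 and Vldlr. The last 5 letters of the UPRE are the reverse complement of CCACG, so these 2 motifs can overlap. ERSE letters were present in 35 of 27025 genes with a promoter (0.13%) and in 7 of 13 ER chaperone promoters, and in 1 ERAD promoter. CARE letters were present in 3.91% of genes and in 6 of 16 promoters of ATF4 targets, in 1 ERAD promoter (Herpud1) and in 0 of 13 chaperone promoters. UPRE letters were present in 0.603% of genes and in 0 of 37 members. A match is a description of letters and not of binding. Capitals below mark both parts of the ERSE, printed along the strand of the gene, where CGTGG and ATTGG are the same parts read on the other strand. Hsp90b1 held a second match, not printed.
Hspa5, chr2:34772020-34772048, plus strand: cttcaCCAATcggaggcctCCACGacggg
Pdia6, chr12:17266486-17266514, plus strand: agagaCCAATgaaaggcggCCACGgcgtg
Dnajc3, chr14:118937822-118937850, plus strand: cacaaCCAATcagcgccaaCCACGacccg
Calr, chr8:84847070-84847098, minus strand: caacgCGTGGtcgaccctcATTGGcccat
Creld2, chr15:88819515-88819543, plus strand: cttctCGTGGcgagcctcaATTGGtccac
Hsp90b1, chr10:86705528-86705556, minus strand: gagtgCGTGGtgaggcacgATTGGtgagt
Canx, chr11:50325795-50325823, minus strand: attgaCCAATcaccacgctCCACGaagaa
Syvn1, chr19:6046527-6046555, plus strand: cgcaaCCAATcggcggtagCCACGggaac

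The CARE letters of 6 members are given in the same way, with the motif in capitals, and TTGCATCA or TTTCATCA is the motif read on the other strand. Herpud1 of the ERAD genes is among them, so they are not the same set as the 6 ATF4 targets counted above.
Vldlr, chr19:27216809-27216838, plus strand: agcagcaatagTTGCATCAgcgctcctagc
Nupr1, chr7:126625562-126625591, minus strand: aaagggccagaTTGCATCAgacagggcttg
Chac1, chr2:119351038-119351067, plus strand: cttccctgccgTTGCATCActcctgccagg
Herpud1, chr8:94386306-94386335, plus strand: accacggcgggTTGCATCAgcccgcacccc
Asns, chr6:7693214-7693243, minus strand: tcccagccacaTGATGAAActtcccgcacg
Gars, chr6:55037960-55037989, plus strand: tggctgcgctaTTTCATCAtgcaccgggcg

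Prkcz itself went against the labels, at 1.35, 1.32 and 1.17 FPKM in the libraries labelled Prkcz-/- against 0.0433, 0.144 and 0.202 FPKM in those labelled WT. Whether these reads covered the deleted exons cannot be seen from 1 value per gene, and every direction below refers to the labels only. In bulk RNA, fewer cells of a type and less RNA per cell cannot be told apart. Depth, estimated from the steps of low values and annotated exon lengths, was roughly 14500000 to 16500000 reads in the libraries labelled Prkcz-/- and 14500000 to 16100000 in those labelled WT. At that depth the members rested on about 288 reads or more in each library (Dnajb9 had the fewest). Fibroblast markers summed to 8981 to 9287 FPKM in the libraries labelled Prkcz-/- and to 6380 to 6651 FPKM in those labelled WT, with Col1a1 and Vim, both higher, the most abundant. The list did not move as one: 6 of the 10 were called higher and 4 lower, Col1a2 and Col3a1 among the lower ones, with Dcn at 5.34 ± 0.892 against 49.1 ± 2.48 FPKM and Lum at 0.0921 ± 0.0513 against 3.39 ± 0.583 FPKM (SD, n = 3 each). The 10 epithelial markers (led by Krt19 and Cldn7) summed to 2.16 to 2.61 against 1.73 to 2.52 FPKM, the macrophage list (Cd14 and Cd68) to 5.70 to 5.93 against 5.07 to 6.22 FPKM and the endothelial list (Tek and Kdr) to 0.827 to 1.10 against 0.699 to 1.152 FPKM. Plasma cells, which carry a strong unfolded protein response, were represented by 4 of 10 listed markers. Their sum of 41.5 to 44.99 against 32.4 to 33.2 FPKM was nearly all Sdc1, which fibroblasts also express, with Cd79a at 0.202 FPKM or less. The smooth muscle list, led by Acta2 and Cnn1, summed to 1984 to 2061 FPKM in the libraries labelled Prkcz-/- and 1195 to 1314 FPKM in those labelled WT, and the part of this difference in the results was not tested. That difference was mostly Acta2, since Cnn1 averaged 86.7 ± 0.715 against 86.4 ± 5.17 FPKM and Cspg4 was lower, at 0.924 ± 0.106 against 3.35 ± 0.266 FPKM (SD, n = 3 each). Of the 6 tested genes of this list 3 were called higher (Acta2, Rgs5 and Notch3), 1 lower and 2 not called. Rgs5 was at 1.47, 1.23 and 1.16 FPKM and listed at 0 in every library labelled WT. Notch3 averaged 3.08 ± 0.237 against 2.37 ± 0.368 FPKM (SD, n = 3 each).

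Genes were compared on log2(FPKM + 0.5) with limma, adjusted by Benjamini-Hochberg over the 12130 genes tested, and an adjusted p under 0.05 counted as a call. Of the 43 members 16 rose, 19 fell and 8 were not called, so that 81.4% were called against 68.7% of all genes tested. Higher calls made up 31.5% of all genes tested, and lower calls 37.2%. The counts differed by role. All 9 transcription factors and feedback genes of the integrated stress response rose, whereas 13 of 15 ER chaperones and folding enzymes fell. The split of 16 higher and 19 lower turned with the scaling, to 21 and 13 with quantile normalization and to 20 and 15 after rescaling without short RNA genes. Changes were modest. A log2 change of at least 1 in size was seen in 10.8% of genes and in 1 member, Vldlr. Values of the 2 groups did not overlap for 39 members (72.7% of all genes).

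**Figure D1:**
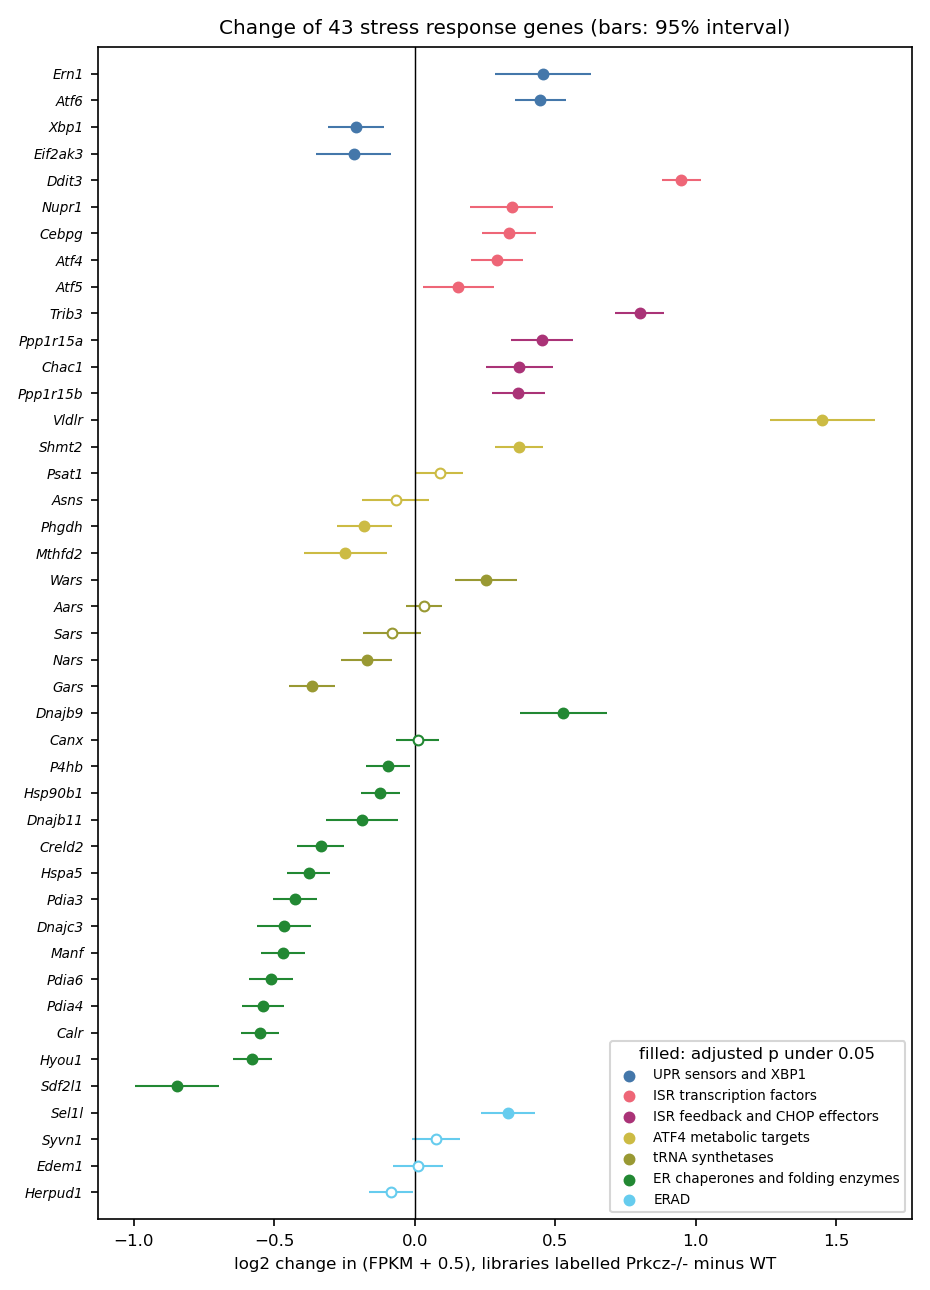
Log2 change in (FPKM + 0.5) of each of the 43 genes, libraries labelled Prkcz-/- minus those labelled WT (x axis), in blocks by role from top to bottom, with 95% intervals from limma as bars and filled points for an adjusted p under 0.05. The transcription factor and feedback blocks lie to the right of 0, and 13 filled points of the 15 chaperones lie to the left.

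The sensors did not move together. Ern1, the kinase and ribonuclease that splices Xbp1 mRNA, measured 6.37, 6.67 and 6.17 FPKM in the libraries labelled Prkcz-/- against 4.13, 4.78 and 4.71 FPKM in those labelled WT (log2 change 0.46, SE 0.0737, limma adjusted p = 7.97e-04). Atf6, the membrane-bound factor that is cut free in the Golgi, measured 23.7, 23.2 and 23.6 against 16.7, 17.1 and 17.6 FPKM (log2 change 0.45, SE 0.0391, limma adjusted p = 2.49e-05). Every library labelled Prkcz-/- was above every library labelled WT for these 2 genes. Eif2ak3, which encodes PERK, was lower, at 7.27, 7.71 and 7.47 against 8.48, 9.29 and 8.59 FPKM (log2 change -0.22, SE 0.0576, limma adjusted p = 0.0102). Xbp1 was also lower, at 45.3, 48.5 and 45.99 against 51.99, 56.0 and 53.9 FPKM (log2 change -0.21, SE 0.0424, limma adjusted p = 0.00271). A whole-gene value does not tell spliced from unspliced Xbp1 mRNA, nor the active from the inactive form of any sensor. The calls of Eif2ak3 and Xbp1 ended under a scaling alternative, Eif2ak3 after rescaling without short RNA genes (-0.14, adjusted p = 0.097) and Xbp1 with quantile normalization (-0.12, adjusted p = 0.056).

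All 5 transcription factors of the integrated stress response rose (31.5% of all genes did), under each scaling tried. Ddit3 encodes CHOP, a factor induced downstream of ATF4, and lies on the plus strand of chromosome 10 (127290774 to 127296288, GENCODE M21 on GRCm38). It measured 96.2, 96.1 and 93.5 FPKM in the libraries labelled Prkcz-/- against 49.1, 48.9 and 49.2 FPKM in those labelled WT. The difference of 0.95 in log2 (SE 0.0299, limma adjusted p = 8.94e-08), 1.94 times the level in the libraries labelled WT, far exceeded the spread in either group. Atf4, on chromosome 15 (80255184 to 80257541), is regulated mainly at translation, which these data do not measure. Its mRNA was nonetheless higher, at 279, 285 and 288 against 243, 221 and 231 FPKM (log2 change 0.29, SE 0.0399, limma adjusted p = 3.05e-04). Nupr1, a small stress-induced chromatin protein, was at 100.2, 103 and 108 against 89.7, 75.4 and 79.5 FPKM (log2 change 0.35, SE 0.0638, limma adjusted p = 0.00165). Cebpg, the C/EBP partner of ATF4, was at 20.6, 20.99 and 20.6 against 16.9, 15.99 and 16.1 FPKM (log2 change 0.33, SE 0.0414, limma adjusted p = 1.78e-04). Nupr1 and Cebpg were thus separated without overlap. Atf5, a relative of ATF4 under the same translational control, was at 147, 147 and 154 against 146, 131 and 127 FPKM, and its highest library labelled WT came close to the lowest labelled Prkcz-/-. Its log2 change of 0.15 (SE 0.0545, limma adjusted p = 0.0342) was no longer called when any single library but WT replicate 1 was left out (adjusted p 0.0616 to 0.1095).

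The 4 feedback and effector genes rose as well. Trib3, a pseudokinase that restrains ATF4 and AKT, on the minus strand of chromosome 2 (152337422 to 152344032), measured 38.8, 38.4 and 38.2 FPKM in the libraries labelled Prkcz-/- against 22.7, 21.6 and 21.3 FPKM in those labelled WT. Its log2 change was 0.80 (SE 0.0378, limma adjusted p = 8.25e-07), the second largest rise, after Ddit3, among the 9 transcription factors and feedback genes. Ppp1r15a, the stress-induced subunit GADD34 that brings phosphatase 1 to eIF2, was at 15.4, 16.3 and 16.1 against 11.1, 11.6 and 11.8 FPKM (log2 change 0.45, SE 0.0471, limma adjusted p = 6.53e-05). Its constitutive relative Ppp1r15b was at 34.7, 32.8 and 32.9 against 25.02, 25.8 and 26.6 FPKM (log2 change 0.37, SE 0.041, limma adjusted p = 9.57e-05). Both subunits that direct eIF2 dephosphorylation were therefore higher, by similar amounts. Chac1, a CHOP-regulated enzyme that degrades glutathione, was at 21.9, 21.3 and 20.9 against 15.3, 17.1 and 16.8 FPKM (log2 change 0.37, SE 0.0515, limma adjusted p = 3.38e-04). For these 4 genes the groups did not overlap, and no alternative tried ended a call.

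**Figure D2:**
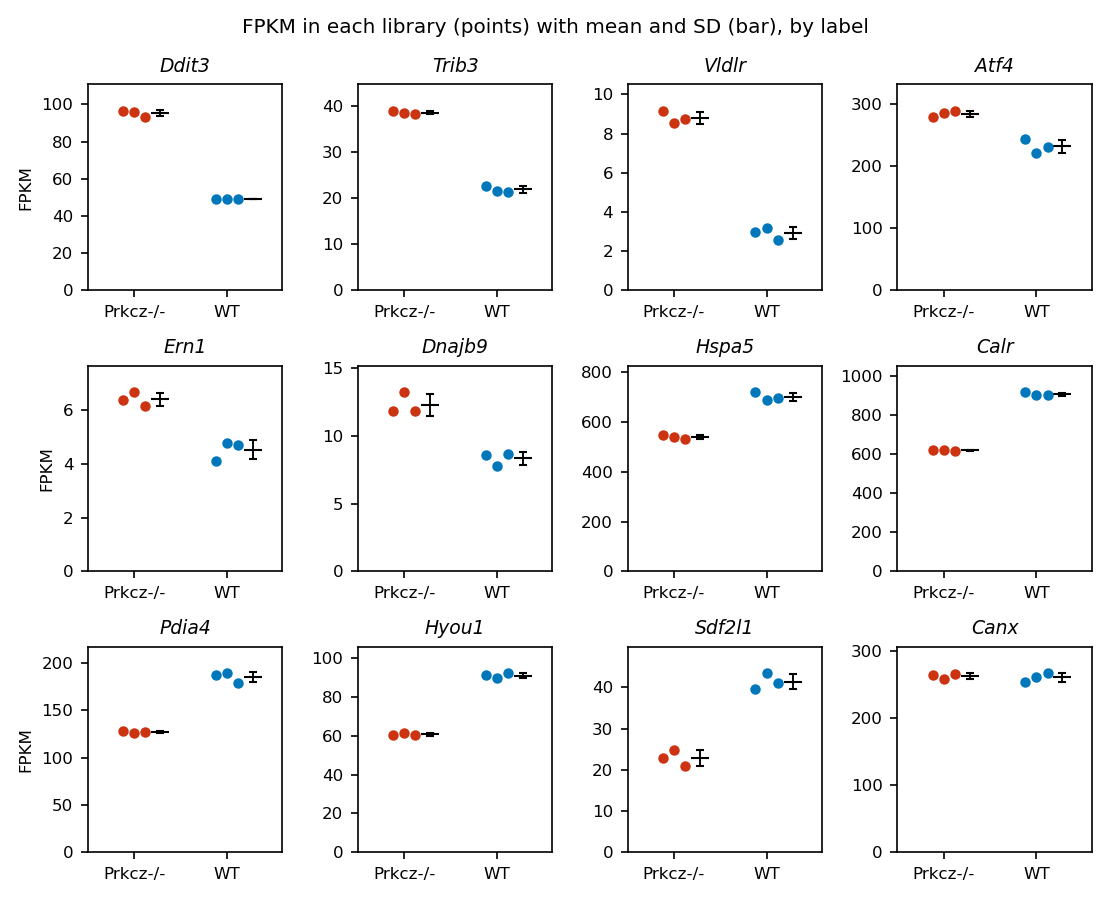
FPKM of 12 members (y axis, from 0) in each of the 6 libraries, those labelled Prkcz-/- in red on the left and those labelled WT in blue on the right, with mean and SD as black bars. Ddit3 sits at 93.5 to 96.2 FPKM in the libraries labelled Prkcz-/- and at 48.9 to 49.2 FPKM in those labelled WT, while Canx overlaps between the groups.

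The metabolic genes described as ATF4 targets, enzymes and the receptor gene Vldlr, did not follow these regulators as a group. Of 6 metabolic targets 2 rose, 2 fell and 2 were not called. These were 33.3% each way, near the 31.5% higher and 37.2% lower over all genes tested. With quantile normalization 3 rose and 1 fell. The median log2 change was 0.01, against -0.04 over all genes tested. Vldlr, a lipoprotein receptor described as an ATF4 target, lies on chromosome 19 (27216484 to 27254231) and changed most of the 43 genes. It measured 9.13, 8.55 and 8.72 FPKM in the libraries labelled Prkcz-/- against 2.95, 3.19 and 2.58 FPKM in those labelled WT (log2 change 1.45, SE 0.0808, limma adjusted p = 2.03e-06), 3.03 times the level in the libraries labelled WT. Shmt2, the mitochondrial serine hydroxymethyltransferase, was at 134, 131 and 136 against 107, 99.8 and 103 FPKM (log2 change 0.37, SE 0.037, limma adjusted p = 5.19e-05). These 2 were the called rises, and Shmt2 was the only enzyme of them. Mthfd2, the next enzyme of the same mitochondrial folate route, was lower, at 68.6, 67.5 and 68.9 against 86.6, 72.8 and 84.97 FPKM (log2 change -0.25, SE 0.0637, limma adjusted p = 0.009). Phgdh, which opens serine synthesis, was lower too, at 91.1, 89.6 and 91.6 against 109, 97.5 and 103 FPKM (log2 change -0.18, SE 0.0428, limma adjusted p = 0.00625), a call that quantile normalization ended (-0.07, adjusted p = 0.103). Consecutive enzymes of 1 pathway thus differed in direction.

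Asparagine synthetase (Asns), among the best known ATF4 targets, was at 86.4, 86.0 and 86.5 FPKM in the libraries labelled Prkcz-/- against 94.5, 83.2 and 94.1 FPKM in those labelled WT, and the groups overlapped. Its log2 change of -0.07 (95% interval -0.19 to 0.05) was not called, turned to 0.04 with quantile normalization and 0.01 without short RNA genes, and reached -0.13 (adjusted p = 0.00711) without WT replicate 2. That library had the lowest value among the libraries labelled WT for 13 of the 18 ATF4 targets and the lowest depth of its group. Psat1, the aminotransferase of serine synthesis, averaged 207 ± 3.56 FPKM in the libraries labelled Prkcz-/- and 195 ± 7.12 FPKM in those labelled WT (SD, n = 3 each). Its difference of 0.09 in log2 missed the threshold (limma adjusted p = 0.0586) and passed it under 3 scalings (0.12 to 0.21) and without WT replicate 3 (adjusted p = 0.0332).

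Cytosolic tRNA synthetases, which load tRNAs with amino acids, were also mixed, with 1 of 5 higher, 2 lower and 2 not called. Over all genes tested 31.5% were higher and 37.2% lower. With quantile normalization 2 synthetases were higher and 1 lower, and without short RNA genes 2 each way. Gars, for glycine, measured 136, 139 and 143 FPKM in the libraries labelled Prkcz-/- against 184, 174 and 179.7 FPKM in those labelled WT (log2 change -0.37, SE 0.0349, limma adjusted p = 4.05e-05). Nars, for asparagine, measured 161, 155 and 154 against 184, 169.5 and 176 FPKM and was called lower (log2 change -0.17, SE 0.0391, limma adjusted p = 0.00513), except with quantile normalization (-0.06, adjusted p = 0.149). Wars, for tryptophan, was at 32.6, 29.3 and 30.7 against 25.7, 25.3 and 26.4 FPKM (log2 change 0.25, SE 0.0475, limma adjusted p = 0.00184). Wars, unlike the others, is also known as an interferon-induced gene. Sars, for serine, averaged 75.6 ± 1.154 against 79.99 ± 4.60 FPKM, and Aars, for alanine, 141 ± 1.16 against 137 ± 1.39 FPKM (SD, n = 3 each), and neither was called. Aars shares 14.3% of its annotated exon length with Exosc6 on the same strand, so its value is uncertain. Opposite-strand genes overlap the exons of Ppp1r15b (11.4%), Hsp90b1 (10.3%), Eif2ak3 (8.05%), Manf (4.71%), Atf5 (4.11%) and Ddit3 (3.97%), and of other members by under 2%. Strand-aware counting is not stated, so these values may hold reads of the partner genes.

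ER chaperones and folding enzymes were lower in 13 of 15 cases (37.2% of all genes were), with 1 higher and 1 not called and a median log2 change of -0.43, against -0.04 over all genes tested. With quantile normalization 10 were lower and 3 higher, and after rescaling without short RNA genes 10 were lower and 2 higher. Hspa5 encodes BiP, the HSP70 chaperone of the ER lumen that holds the sensors inactive, and lies on chromosome 2 (34771970 to 34777547). It measured 549, 538 and 529.7 FPKM in the libraries labelled Prkcz-/- against 719, 689 and 695 FPKM in those labelled WT (log2 change -0.38, SE 0.0332, limma adjusted p = 2.56e-05), 0.769 times the level in the libraries labelled WT. Sdf2l1, a partner of BiP, on chromosome 16 (17130138 to 17132383), fell most among the 43 genes, to 22.8, 24.8 and 20.95 against 39.7, 43.4 and 41.1 FPKM (log2 change -0.85, SE 0.0647, limma adjusted p = 1.16e-05). Hyou1, the nucleotide exchange factor of BiP, was at 60.4, 61.4 and 60.1 against 90.9, 89.6 and 91.9 FPKM (log2 change -0.58, SE 0.0298, limma adjusted p = 1.33e-06). These 3 genes were lower in every library labelled Prkcz-/- than in any labelled WT. The co-chaperone Dnajc3, also an inhibitor of PERK, averaged 36.0 ± 1.29 against 49.96 ± 1.68 FPKM (SD, n = 3 each) and fell by 0.47 on the log2 scale (limma adjusted p = 2.98e-05). Dnajb11, another J protein of the lumen, averaged 64.0 ± 2.23 against 73.1 ± 5.198 FPKM (log2 change -0.19, limma adjusted p = 0.0169), a call lost without Prkcz-/- replicate 2 (adjusted p = 0.059) and under 2 scalings.

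The lectin chaperones, which hold glycoproteins, parted. Calr, calreticulin of the lumen, measured 619.6, 624 and 617 FPKM in the libraries labelled Prkcz-/- against 918, 904.5 and 904 FPKM in those labelled WT (log2 change -0.55, SE 0.0297, limma adjusted p = 1.71e-06). Canx, its membrane-anchored counterpart, was at 264, 258 and 266 against 253, 262 and 267 FPKM, with overlapping groups (log2 change 0.01, 95% interval -0.07 to 0.09). Their promoters both carried the ERSE letters. Of the protein disulfide isomerases, Pdia4 was at 128, 126 and 127 against 188, 189 and 179 FPKM (log2 change -0.54, SE 0.0322, limma adjusted p = 2.95e-06). Pdia6 averaged 195 ± 2.17 against 278 ± 9.19 FPKM, and Pdia3, which works with Calr and Canx, 411 ± 2.43 against 553 ± 17.3 FPKM (SD, n = 3 each), with log2 changes of -0.51 and -0.43. P4hb, which is also a subunit of collagen prolyl hydroxylase, changed little, at 626, 636 and 632 against 688, 683 and 653 FPKM. Its log2 change of -0.10 (limma adjusted p = 0.0343) was lost when any single library but WT replicate 3 was left out (adjusted p 0.0569 to 0.121), and turned to 0.12 (adjusted p = 0.00512) with quantile normalization.

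Hsp90b1, the HSP90 of the ER, was the most abundant member per gene length, at 878, 868 and 873 FPKM in the libraries labelled Prkcz-/- against 959, 949 and 944 FPKM in those labelled WT. Its fall of 0.12 in log2 (limma adjusted p = 0.0074) was not called without short RNA genes (-0.04, adjusted p = 0.232) and turned to 0.04 (adjusted p = 0.287) with quantile normalization. The secreted or luminal stress proteins Manf and Creld2 averaged 47.5 ± 1.25 and 49.7 ± 0.581 FPKM in the libraries labelled Prkcz-/- against 65.9 ± 1.03 and 62.8 ± 2.18 FPKM in those labelled WT (SD, n = 3 each), and both fell (log2 changes -0.47 and -0.33). Dnajb9, a J protein known as a target of IRE1 and XBP1 and as a repressor of IRE1, went the other way. It was at 11.8, 13.2 and 11.9 against 8.62, 7.81 and 8.65 FPKM (log2 change 0.53, SE 0.0661, limma adjusted p = 1.87e-04). Of the 7 chaperones with ERSE letters 6 fell, all but Canx, against 37.2% lower among all genes tested. All but Dnajb9 of the other 6 searched promoters (Pdia3, Pdia4, P4hb, Dnajb9, Dnajb11 and Sdf2l1) belonged to genes that fell too. Members with CARE letters were spread over rises (Vldlr, Nupr1 and Chac1), a fall (Gars) and genes not called (among them Asns and Herpud1).

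In the ERAD machinery 1 of 4 genes rose and 3 were not called (31.5% of all genes tested rose and 37.2% fell). Sel1l, the scaffold of the HRD1 ligase complex, measured 28.6, 27.9 and 29.2 FPKM in the libraries labelled Prkcz-/- against 22.4, 23.4 and 21.96 FPKM in those labelled WT (log2 change 0.33, SE 0.041, limma adjusted p = 1.76e-04). Syvn1, the HRD1 ligase itself, averaged 25.3 ± 0.206 against 23.97 ± 0.626 FPKM (SD, n = 3 each), and its log2 change of 0.08 (limma adjusted p = 0.105) passed the threshold under each of 3 scalings (0.11 to 0.16). Edem1, a lectin that picks misfolded glycoproteins, averaged 28.8 ± 1.00 against 28.5 ± 0.228 FPKM, with a log2 change of 0.01 (95% interval -0.08 to 0.10). Herpud1, a membrane organiser of the complex, averaged 39.99 ± 0.751 against 42.4 ± 0.684 FPKM. Its log2 change of -0.08 stood at the threshold (limma adjusted p = 0.0531) and was called without WT replicate 2 (adjusted p = 0.0464), with library weights (0.0371) and with no filter on low values (0.0357).

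Set against each other, the 18 ATF4 targets (Ddit3, Atf5, Cebpg, Nupr1, Ppp1r15a, Trib3, Chac1, the 6 metabolic genes and the 5 synthetases) and the 15 chaperones moved apart. Of the ATF4 targets 10 rose and 4 fell (31.5% and 37.2% of all genes tested did), and their median log2 change was 0.20, against -0.43 for the chaperones. The targets were not uniform. Those among the transcription factors and feedback genes all rose. The 6 metabolic genes had 2 higher and 2 lower (median 0.01), and the 5 synthetases 1 higher and 2 lower (median -0.08). With quantile normalization 12 targets were higher and 2 lower, and without short RNA genes 12 were higher and 4 lower. The difference between the 2 medians was 0.63. This is a description of chosen genes, with no test. In each library, the mean log2 level of the ATF4 targets minus that of the chaperones was -0.99, -1.02 and -0.97 in the libraries labelled Prkcz-/- against -1.55, -1.60 and -1.58 in those labelled WT. The chaperones together took 0.890% to 0.896% of the FPKM sum in the libraries labelled Prkcz-/- and 1.02% to 1.06% in those labelled WT. The ratio of Ddit3 to Hspa5 was 0.175, 0.178 and 0.176 in the libraries labelled Prkcz-/- and 0.0684, 0.071 and 0.0709 in those labelled WT. A single scaling factor per library leaves such ratios as they are, and quantile normalization does not.

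**Figure D3:**
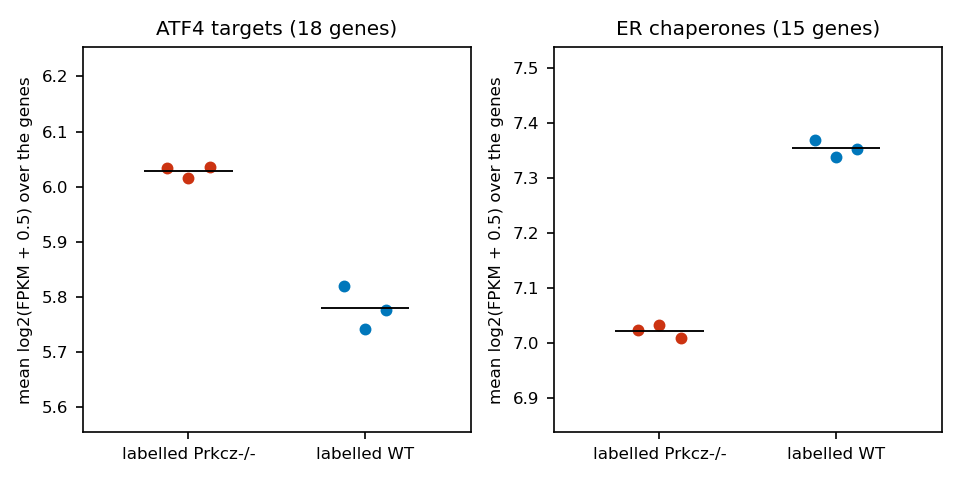
Mean log2(FPKM + 0.5) over 18 ATF4 targets (left panel) and 15 ER chaperones (right panel) in each library (points), with the group mean as a line, libraries labelled Prkcz-/- left of those labelled WT. Both y axes span the same range of log2 units and do not start at 0. ATF4 targets are higher, at 6.01 to 6.04 against 5.74 to 5.82, and chaperones lower, at 7.01 to 7.03 against 7.34 to 7.37. The targets include metabolic genes and synthetases, whose calls went both ways.

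**Figure D4:**
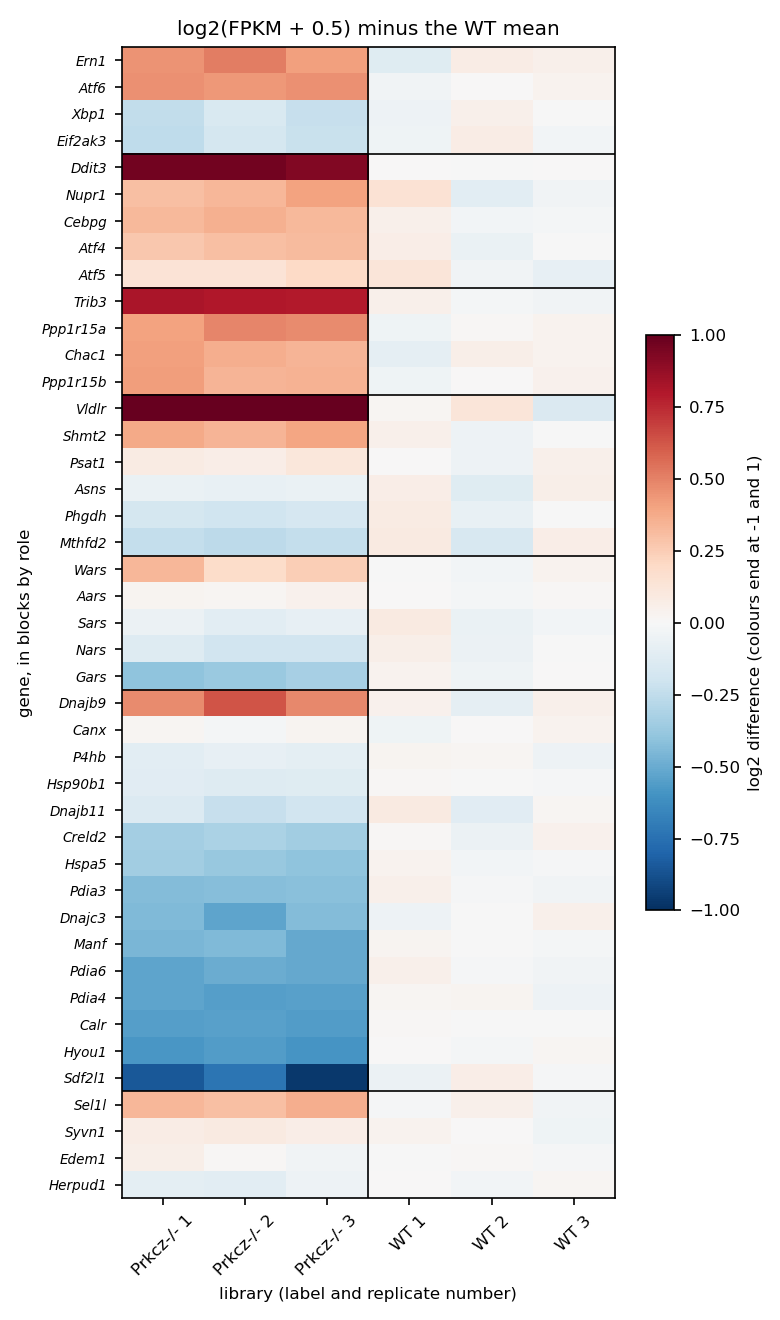
Difference of each library from the mean of the libraries labelled WT, in log2(FPKM + 0.5), for the 43 genes (rows, in blocks by role) and 6 libraries (columns), red for higher and blue for lower, with the colours ending at -1 and 1. Ddit3, Trib3 and Vldlr are the darkest red rows, and Sdf2l1 is the darkest blue row.

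Other genes of the same pathways were counted in lists chosen, like the members, with earlier results of these data known. For comparison, 31.5% of all genes tested were called higher and 37.2% lower. Further ATF4 targets and amino acid enzymes rose in 12 of 24 cases and fell in 7, with 12 and 4 under median-ratio scaling, 10 and 4 with quantile normalization and 14 and 4 without short RNA genes. Atf3, a transcription factor induced beside CHOP, measured 8.85, 9.32 and 10.5 FPKM in the libraries labelled Prkcz-/- against 2.19, 2.22 and 2.19 FPKM in those labelled WT (log2 change 1.89, SE 0.0769, limma adjusted p = 3.57e-07). Aldh1l2, a mitochondrial folate enzyme, averaged 51.5 ± 2.12 against 26.6 ± 1.38 FPKM, and the zinc finger repressor Zbtb18 averaged 18.7 ± 0.490 against 8.54 ± 0.623 FPKM (SD, n = 3 each). Fgf21 and Gdf15, hormones of the integrated stress response named here after their values were seen, went opposite ways. Gdf15 was at 5.87, 6.29 and 5.27 against 0.768, 0.991 and 0.512 FPKM, while Fgf21 was listed at 0 in 2 libraries labelled Prkcz-/- and at 0.147 FPKM in the other, against 1.76 to 2.73 FPKM in those labelled WT. These induced genes thus did not share a direction. Amino acid transporters linked to ATF4 had 4 of 11 higher and 5 lower (36.4% and 45.5%, not far from the shares over all genes). Their median log2 change was -0.28, against -0.04 over all genes tested, and it stayed negative under every alternative. It thus lay on the other side from the median of the ATF4 targets among the members. The glycine carrier Slc6a9 averaged 29.4 ± 0.978 against 11.3 ± 0.597 FPKM, the heavy chain Slc3a2 107 ± 3.43 against 67.3 ± 2.01 FPKM and the glutamine carrier Slc1a5 20.4 ± 0.608 against 34.9 ± 0.948 FPKM (SD, n = 3 each). Of 18 genes of other synthetases and their complex (Aimp1, Aimp2 and Eef1e1 are scaffold proteins) 4 rose and 8 fell (22.2% and 44.4%). With quantile normalization or without short RNA genes 6 rose and 6 fell. Vars averaged 47.2 ± 0.941 against 66.6 ± 2.18 FPKM, while Eprs, at 144 ± 3.50 against 118 ± 0.468 FPKM, and Dars, at 83.7 ± 2.14 against 70.5 ± 0.626 FPKM, were higher (SD, n = 3 each).

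Folding and export genes of the ER outside the member list were mostly lower, and other ERAD genes were not. Of 26 other folding enzymes 20 were called lower and 2 higher (median log2 change -0.38), with 18 to 20 lower under each scaling tried. These calls were 76.9% and 7.69% of the list, against 37.2% lower and 31.5% higher over all genes tested. Ppib, the ER cyclophilin, measured 312, 318 and 320.4 FPKM in the libraries labelled Prkcz-/- against 457, 468 and 459 FPKM in those labelled WT (log2 change -0.54, SE 0.0295, limma adjusted p = 1.82e-06). Dnajc10, an ER reductase, averaged 71.0 ± 0.293 against 103 ± 1.59 FPKM, and Erp29 79.2 ± 3.202 against 138 ± 6.85 FPKM (SD, n = 3 each). Of 38 genes of the translocon, signal peptidase and vesicle export 26 fell and 4 rose (68.4% and 10.5%). With quantile normalization 18 fell and 8 rose, and without short RNA genes 20 fell and 8 rose. Kdelr2, the receptor that returns chaperones to the ER, was at 119, 125 and 113 against 215, 213 and 216 FPKM (log2 change -0.85, SE 0.0406, limma adjusted p = 9.02e-07), Ssr1 averaged 38.2 ± 0.926 against 61.5 ± 1.73 FPKM and Sec13 114 ± 2.16 against 169 ± 3.63 FPKM (SD, n = 3 each). Other ERAD genes were mixed, with 9 of 21 higher and 7 lower (42.9% and 33.3%, against 31.5% and 37.2% of all genes). The glycan receptor Os9 averaged 41.7 ± 1.00 against 26.4 ± 0.842 FPKM, Stt3b 58.7 ± 0.431 against 82.7 ± 0.897 FPKM and Selk 46.3 ± 2.00 against 75.2 ± 2.52 FPKM (SD, n = 3 each). Of 15 genes of eIF2 kinases, eIF2, eIF2B and linked factors (Eif2a, Eif2d, Gcn1l1 and Impact) 10 fell and 2 rose (66.7% and 13.3%). However, 9 fell and 4 rose with quantile normalization, and 6 fell and 4 rose without short RNA genes. Eif2b1 averaged 21.6 ± 0.721 against 27.9 ± 0.182 FPKM, Eif2b4 16.6 ± 0.388 against 20.3 ± 0.329 FPKM and Eif2s2 75.2 ± 0.743 against 93.3 ± 5.22 FPKM (SD, n = 3 each). In a list of the ATF6 and CREB3 family with proteases and other ER stress regulators (Mbtps1, Mbtps2, Wfs1, Tmbim6, Traf2 and Rtcb) 2 of 10 tested genes rose and 3 fell, or 3 and 2 without short RNA genes. Mbtps2, a protease that cuts ATF6 free, averaged 6.06 ± 0.488 against 9.33 ± 0.762 FPKM, Atf6b 25.9 ± 0.393 against 29.7 ± 0.678 FPKM and Rtcb, the ligase that joins spliced Xbp1 mRNA, 112 ± 2.05 against 90.4 ± 5.29 FPKM (SD, n = 3 each).

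**Figure D5:**
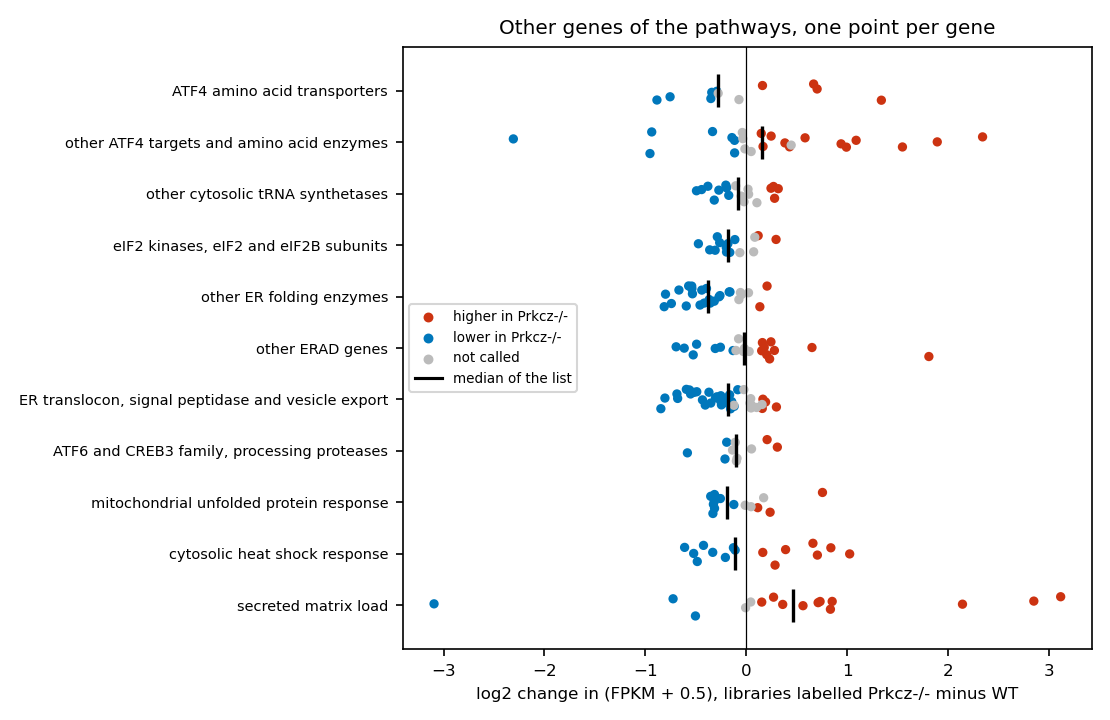
Log2 change in (FPKM + 0.5), libraries labelled Prkcz-/- minus those labelled WT (x axis), of the tested genes of 11 other pathway lists (rows, 1 point a gene), red for called higher, blue for called lower, grey for not called, with the list median as a black bar. The row of other ER folding enzymes has its median at -0.38 and 20 of 26 points called lower.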

How the data were processed

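The authors deposited 1 table of FPKM values, per the labels' description, with 1 column for each of the 6 libraries. Per the labels' protocols, polyadenylated RNA was made into directional libraries and read from a single end at 76 bases. STAR, DESeq2 and mm10 are named in the submitters' processing notes. Their roles, the counter, the annotation and the strand setting: not given in the sources used here. Since FPKM is no count, count models were not used. The 12130 of 16874 genes that averaged 0.5 FPKM or more were compared on log2(FPKM + 0.5), which understates the change of low genes, with limma 3.58.1 in R 4.3.3 (lmFit, eBayes with a variance trend, two-sided, Benjamini-Hochberg adjustment, threshold 0.05). The fit was also run on simulated data with independent noise in each gene and few changed genes. Those data held no scaling shift between libraries, so the run cannot show how scaling affects the calls.

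Members, roles and lists were chosen with earlier results of these data known. By rule, the called genes with the largest change (up to 4 per role) were given by library. Atf5, Asns, Hspa5, Canx, P4hb, Hsp90b1 and Dnajb9 were added after their values were seen, and the 3 smallest p-values per pathway list were named. Of the member symbols 42 matched 1 gene of GENCODE M21 (GRCm38), and for Ddit3 the longer of 2 models was used. Promoters are from RefSeq. 1 further marker list and 1 further promoter sequence are not reported here. Alternatives were other pseudocounts (0.1 and 1), filters (none and 2 FPKM), scalings, variance models, weights, a threshold of 0.01, a replicate block and each library left out. Same-numbered libraries were not paired by the labels.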

Additional observations from a re-analysis of the deposited data

How the results depend on the processing

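Of the 35 called members, 27 kept their direction and their call under all 17 alternatives, and each of the 8 members not called passed the threshold or changed sign under at least 1. Scaling mattered most. The median log2 change of all genes moved by 0.08 at most. The median of the chaperones went to -0.40 with median-ratio scaling, -0.25 with quantile normalization and -0.35 after rescaling without short RNA genes. The median of the ATF4 targets went to 0.27 with quantile normalization and 0.28 without short RNA genes, and the difference between the 2 medians to 0.53 with quantile normalization. The cause was not tested. Signs reversed with quantile normalization for Asns (0.042), Sars (0.013), Hsp90b1 (0.041) and P4hb (0.12), and without short RNA genes for Asns (0.014) and Sars (0.0013). With 1 library left out, Edem1 ranged from -0.014 to 0.035 and Canx from -0.0098 to 0.027. With 1 library left out at a time, 7648 to 8133 genes were called across the table, 15 to 16 members were higher and 17 to 20 lower. The median of the ATF4 targets was then 0.19 to 0.23, that of the chaperones -0.44 to -0.40 and their difference 0.61 to 0.65.

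Same-numbered libraries showed little common deviation (Pearson's r of deviations from the group means across genes 0.0599, 0.0148 and 0.00827). Libraries with unlike numbers gave -0.0747 to 0.0615, and genes are not independent replicates. Such values cannot exclude a shared culture or batch, because deviations are taken from means of only 3 libraries. With the replicate block 8093 genes were called, and 16 members were higher and 18 lower. The 3 libraries a group and a depth that is only estimated limit how small a change can be called.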

Other observations

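Protein quality control outside the ER was also measured. Of 14 genes listed under the mitochondrial unfolded protein response 8 fell and 3 rose (57.1% and 21.4%, against 37.2% and 31.5% of all genes). Their median log2 change was -0.19, and without short RNA genes 7 fell and 5 rose. Atf7 was among the rises, and its part in that response was not tested. The inner membrane proteases Spg7 and Yme1l1 averaged 30.7 ± 1.07 and 42.3 ± 1.09 FPKM in the libraries labelled Prkcz-/- against 39.4 ± 1.00 and 52.9 ± 1.75 FPKM in those labelled WT (SD, n = 3 each), while Atf7, a CREB family factor, was higher at 17.0 ± 0.830 against 9.89 ± 1.21 FPKM. All 15 cytosolic heat shock genes were called, 7 higher and 8 lower, against 68.7% of all genes. Not all stayed called under other scalings, with 6 higher and 6 lower with quantile normalization and 7 and 6 without short RNA genes. The small heat shock proteins Hspb1 and Cryab averaged 58.4 ± 2.71 and 123 ± 7.55 FPKM against 32.4 ± 0.568 and 60.1 ± 2.25 FPKM, and Dnaja1, a co-chaperone of HSP70, 21.8 ± 0.747 against 33.5 ± 0.656 FPKM (SD, n = 3 each). Hspb1 and Cryab rose, and Dnaja1 fell (limma adjusted p of 5.19e-06 or less).

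The matrix genes that pass through the ER had 11 of 16 higher and 3 lower (median log2 change 0.46). These were 68.8% and 18.8% of the list, against 31.5% higher and 37.2% lower over all genes tested. Col12a1, Col6a2 and Col6a1 averaged 195 ± 4.58, 251 ± 2.51 and 429.9 ± 0.659 FPKM in the libraries labelled Prkcz-/- against 22.02 ± 1.07, 34.4 ± 2.36 and 97.2 ± 7.56 FPKM in those labelled WT (SD, n = 3 each). Col1a1, the most abundant fibroblast marker, measured 2989, 3029 and 2899 FPKM in the libraries labelled Prkcz-/- against 1820.0, 1901 and 1724 FPKM in those labelled WT (log2 change 0.71, SE 0.0469, limma adjusted p = 5.06e-06). Serpinh1, the ER chaperone of collagen, named after its values were seen, measured 837, 854 and 853 against 1104, 1079 and 1100.0 FPKM (log2 change -0.37, SE 0.0315, limma adjusted p = 2.23e-05). Col1a2, the partner chain of Col1a1, and Col3a1 fell like Serpinh1, to 826 ± 19.2 and 440.6 ± 12.6 FPKM against 1172 ± 58.5 and 729.6 ± 51.5 FPKM (SD, n = 3 each), so collagen chains differed in direction.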
